A study of Homo sapiens with 4 samples.

Results

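The genes of cholesterol and fatty acid synthesis form the group described here. It was set by a list of names: 5 regulators of the sterol regulatory element binding proteins (SREBPs), 21 genes of the sterol arm and 12 of the fatty acid arm, 38 genes of the 60683 gene identifiers in the tables. All 38 names matched an identifier, and 37 of them were among the 14470 genes with enough reads to be tested. NPC1L1, the sterol importer of the gut lumen, was the exception, with 1 count in each FOXD2 library, against 4 and 0 counts in the empty vector libraries. No measured value was used to choose the genes, but the list was drawn up with earlier results of these data known.

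The cells were HCT116, a long-established line from a human colorectal carcinoma. Those of the FOXD2 group (2 libraries) carried a stable pSin lentiviral insert with the full coding region of FOXD2, which encodes a transcription factor of the forkhead family. Those of the empty vector group (2 libraries) carried pSin without an insert. Both groups were grown in high glucose medium with fetal bovine serum under puromycin at 5 μg/ml, and polyA RNA was taken with TRIzol and made into strand-specific libraries. Nothing in the labels tells whether the 2 libraries of a group are separate cultures or transductions. The p-values therefore measure the spread between these libraries only, and that spread may be technical. Each group is a bulk population, in which fewer cells of a type and less RNA per cell cannot be told apart, and counts of FOXD2 pool the delivered sequence with the cells' own transcript.

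Cells make cholesterol from acetyl-CoA through mevalonate, isoprenoids, squalene and lanosterol, and make fatty acids by carboxylating acetyl-CoA to malonyl-CoA and joining these units on fatty acid synthase. Both routes are largely under transcription factors of the SREBP family. These are held in the membrane of the endoplasmic reticulum by SCAP and the INSIG proteins while sterols are plentiful, and are carried to the Golgi and cut free when sterols run low. SREBP2 acts mainly on sterol genes and SREBP1 mainly on fatty acid genes, and many tumour lines, colorectal ones included, run both routes at a high rate.

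Library totals were 15340166 and 14231338 counts in the FOXD2 libraries and 14245777 and 15535817 counts in the empty vector libraries. FOXD2 stood at 526.5 and 479.1 CPM (counts relative to library size) in the FOXD2 libraries, against 3.50 and 2.78 CPM in the empty vector libraries, a log2 fold change of 7.32 (SE 0.10), so the libraries went with their labels. Of the colon epithelial markers, KRT8, KRT18 and CDH1 were abundant in every library (80.1 CPM or more) and higher in the FOXD2 libraries, CDX2 was lower there (11.4 and 13.4 CPM, against 16.2 and 18.9 CPM in the empty vector libraries, a call lost without empty vector replicate 2, adjusted p = 0.0563), KRT20 stayed between 0.683 and 1.79 CPM, VIL1 was at or under 0.410 CPM, and CDX1 was at 0 in all 4 libraries. The colon epithelial markers were thus mixed and do not by themselves settle the labelled colon identity. KRT8, KRT18 and CDH1 were abundant, while CDX1 and VIL1 were at or near 0. KRT20 was low, and CDX2 was present in all 4 libraries but lower in the FOXD2 libraries. The summed level of 4 adipocyte markers was 0.321 and 0.205 CPM in the FOXD2 libraries and 0 and 0.265 CPM in the empty vector libraries. That of 4 hepatocyte markers was 0.642 and 0.205 CPM in the FOXD2 libraries and 0.215 and 0.132 CPM in the empty vector libraries. That of 5 blood and endothelial markers was 0.128 and 0.137 CPM in the FOXD2 libraries and 0.0715 and 0.0662 CPM in the empty vector libraries. Among 5 fibroblast markers COL1A1 made up nearly all of the sum (31.4 and 32.8 CPM in the FOXD2 libraries, 9.44 and 10.6 CPM in the empty vector libraries), while COL1A2, DCN and LUM were at 0 in all 4. The part of these marker differences in the results was not tested.

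Sterol and fatty acid synthesis genes moved in both directions, and about as often as genes at large. Of the 37 tested, 7 rose and 13 fell in the FOXD2 libraries (adjusted p under 0.05, quasi-likelihood test of edgeR with Benjamini-Hochberg adjustment over all genes tested), and 17 did not pass. That is 54.1% of them, beside 53.5% of all genes tested, of which 27.2% were higher and 26.4% lower. The median log2 fold change of the 37 genes was -0.11, beside 0.01 over all genes. Fold changes were small: past the threshold, only ELOVL1 and TM7SF2 were at least 1.5-fold higher and only ELOVL6 at least 1.5-fold lower, where 14.9% and 7.81% of all genes were. The CPM of the groups did not overlap for 10 genes with the FOXD2 libraries above and 17 with them below, beside 38.9% and 37.2% of all genes. On the authors' TPM, a level per length, tested with limma on log2(TPM + 1), 7 were higher and 7 lower (20.2% and 16.9% of all genes), and with DESeq2 5 were higher and 9 lower (18.7% and 20.2% of all genes). Without FOXD2 replicate 1 the counts were 10 higher and 11 lower (24.0% and 24.5% of all genes), and without FOXD2 replicate 2 they were 8 higher and 18 lower (24.1% and 24.2%). A fit without a library leaves 1 library in that group, which is assumed to vary like the pair of the other group. Its adjusted p therefore does not include the spread within its own group. That limit applies to every call said below to hold, be lost or pass without a library.

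In the sterol arm 4 of 20 tested genes rose and 6 fell (median -0.07), and in the fatty acid arm 2 of 12 rose and 6 fell (median -0.23). These counts, and those of the shorter lists below, stand beside 27.2% of all genes tested higher and 26.4% lower. Whether the arms or the shorter lists differ from each other or from other genes was not tested. Summed over the 12 fatty acid genes, the level was 1186 and 1453 TPM in the FOXD2 libraries and 1399 and 1239 TPM in the empty vector libraries. The 21 sterol arm genes summed to 944.5 and 1150 TPM in the FOXD2 libraries and 1107 and 1042 TPM in the empty vector libraries. Both sums overlapped between the groups. All 38 genes took 0.242% and 0.294% of the total TPM in the FOXD2 libraries, and 0.275% and 0.250% in the empty vector libraries. SCD (mean of the 4 libraries 418.6 TPM) and FASN (394.8 TPM) stood highest, with overlapping ranges, and ACACB (1.68 TPM) and NPC1L1 (0.03 TPM) lowest.

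**Figure D1:**
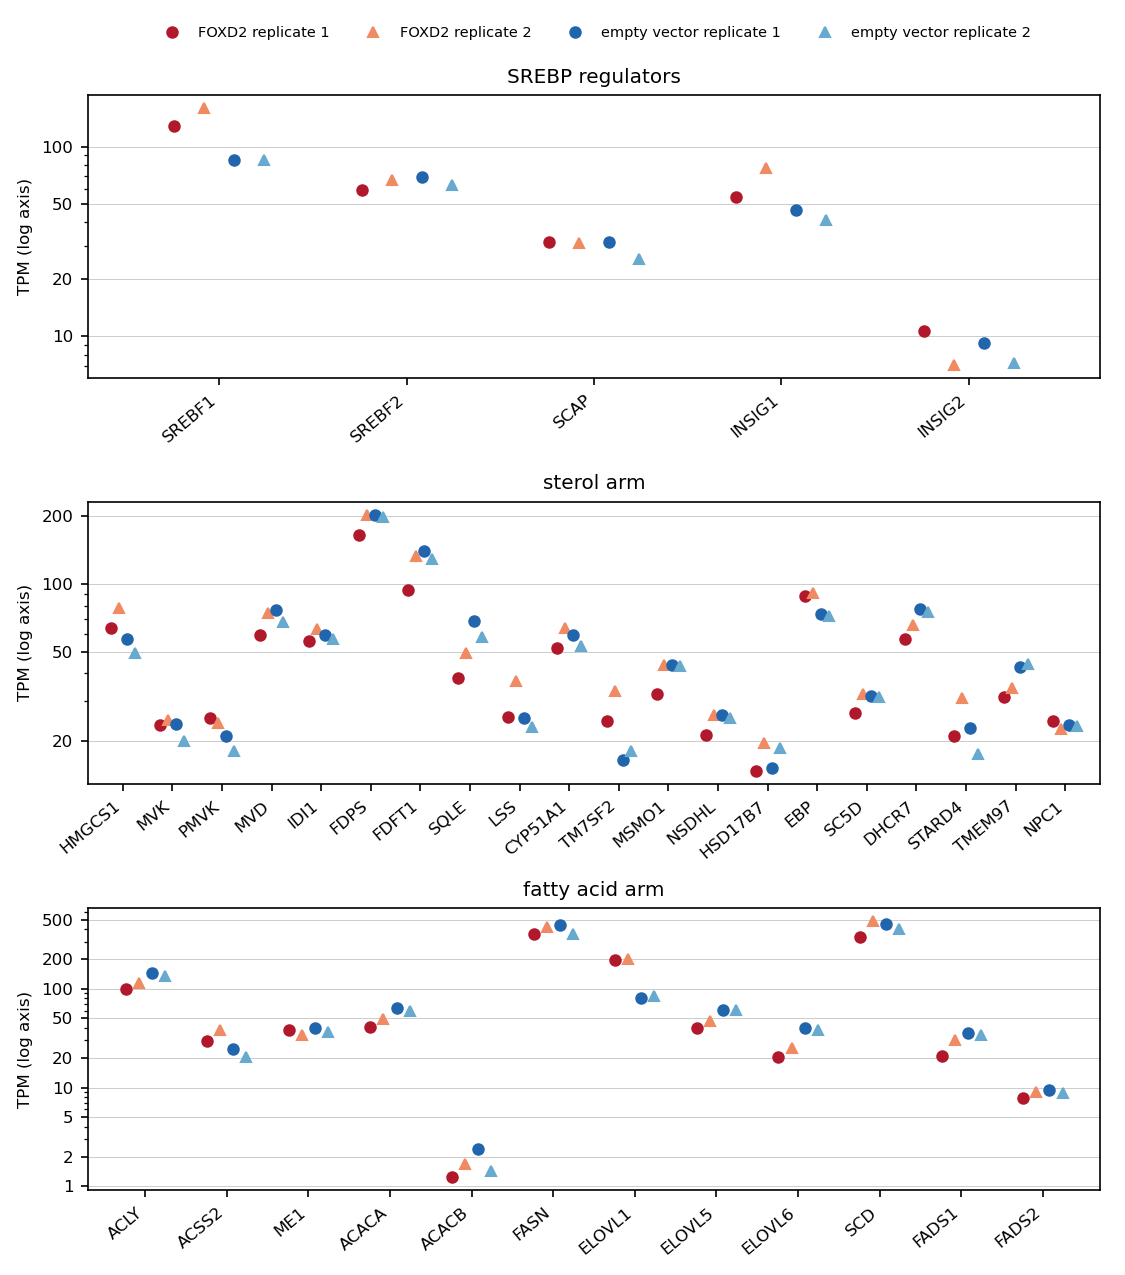
Level of each tested gene in TPM (log axis) in each of the 4 libraries, with FOXD2 replicates in red and orange and empty vector replicates in dark and light blue. ELOVL1 stands at 194.9 and 198.0 TPM in the FOXD2 libraries, above 81.0 and 83.9 TPM in the empty vector libraries, while SCD and FASN overlap between the groups.

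Among the regulators, SREBF1 rose and SREBF2 was slightly lower in the FOXD2 libraries. SREBF1, which encodes SREBP1, lies on chromosome 17 (17810399 to 17837002, minus strand, GRCh38). It measured 282.3 and 298.7 CPM in the FOXD2 libraries, against 215.8 and 209.8 CPM in the empty vector libraries (log2 fold change 0.45, SE 0.06, adjusted p = 3.72e-09, edgeR). Both FOXD2 libraries lay well above both empty vector libraries, and the call held without each library in turn. Its exons overlap those of RAI1 on the opposite strand over 6.92% of their bases, and RAI1 was higher (0.28), a call lost without empty vector replicate 2 (0.20, adjusted p = 0.120). SREBF2, which encodes SREBP2 and lies on chromosome 22 (41833079 to 41907308, plus strand), measured 222.7 and 251.2 CPM in the FOXD2 libraries, against 270.9 and 252.4 CPM in the empty vector libraries. Its change of -0.14 (SE 0.06, adjusted p = 0.0456, edgeR) barely passed, FOXD2 replicate 2 lay next to empty vector replicate 2, and its TPM overlapped between the groups (58.8 and 66.6 TPM in the FOXD2 libraries, against 69.3 and 62.9 TPM in the empty vector libraries). The call was lost without FOXD2 replicate 1 (-0.07, adjusted p = 0.402) and without empty vector replicate 1 (-0.10, 0.381) or 2 (-0.20, 0.0523). In TPM, SREBF1 exceeded SREBF2 by a ratio of 2.20 and 2.40 in the FOXD2 libraries, against 1.23 and 1.36 in the empty vector libraries. TPM divides by a transcript length estimated in each library, and that of SREBF1 was shorter in the FOXD2 libraries (-15.7%). In CPM, SREBF1 lay above SREBF2 in the FOXD2 libraries and below it in the empty vector libraries.

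The genes of the proteins that hold SREBPs back (INSIG1 and INSIG2) or escort them (SCAP) did not pass in the edgeR fit to all 4 libraries. That fit was made after the filter on low counts. INSIG1, the retention factor that is itself an SREBP target, measured 95.0 and 133.0 CPM in the FOXD2 libraries, against 82.1 and 74.6 CPM in the empty vector libraries. The groups did not overlap, but the FOXD2 libraries lay far apart, and the change of 0.54 (SE 0.23) had an adjusted p of 0.175 (edgeR). Fits to all 4 libraries did not agree on it: the adjusted p was 2.73e-05 with no filter on low counts (0.53), 3.19e-08 with a replicate block (0.53) and 0.0293 on the log2(TPM + 1) scale (0.56, limma). The change was 0.76 without FOXD2 replicate 1 and 0.28 without FOXD2 replicate 2, fits whose adjusted p (1.84e-21 and 0.00175) takes no account of the gap between these 2 libraries. It was 0.60 without empty vector replicate 1 (adjusted p = 3.72e-06) and 0.47 without empty vector replicate 2 (0.000275). INSIG2, its paralog, measured 13.3 CPM in both FOXD2 libraries, against 14.9 and 14.8 CPM in the empty vector libraries (-0.16, adjusted p = 0.322, edgeR). SCAP, the escort protein that senses sterol, measured 76.2 and 75.5 CPM in the FOXD2 libraries, against 74.2 and 70.5 CPM in the empty vector libraries (0.07, adjusted p = 0.449, edgeR).

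SREBF1 rose, while the fall of SREBF2 barely passed and was lost in some fits. For this contrast, and because SREBPs are known to act on their own promoters, the promoters of both genes are shown. Each runs from 250 bases before to 50 after a start in RefSeq (GRCh38.p14), 5′ to 3′ on the strand of the gene. Capitals mark matches on either strand to TCACNCCAC (a sterol regulatory element), CCAAT (the NF-Y box), GGGCGG (the GC box) and TGTTTAC (a forkhead motif).
SREBF1, chr17:17836937-17837236, minus strand: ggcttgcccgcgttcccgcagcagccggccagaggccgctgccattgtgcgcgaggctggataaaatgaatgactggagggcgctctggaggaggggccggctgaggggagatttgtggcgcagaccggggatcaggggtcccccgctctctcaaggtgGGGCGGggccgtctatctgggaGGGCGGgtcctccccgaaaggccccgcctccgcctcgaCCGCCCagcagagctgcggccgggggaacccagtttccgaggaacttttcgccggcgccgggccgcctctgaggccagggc
SREBF2, chr22:41832855-41833154, plus strand: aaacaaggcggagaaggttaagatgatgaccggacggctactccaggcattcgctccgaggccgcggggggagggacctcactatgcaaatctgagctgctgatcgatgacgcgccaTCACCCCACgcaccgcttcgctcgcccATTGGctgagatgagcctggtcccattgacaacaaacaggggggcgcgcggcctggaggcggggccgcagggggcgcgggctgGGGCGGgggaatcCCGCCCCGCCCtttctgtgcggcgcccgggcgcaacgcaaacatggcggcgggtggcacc

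The SREBF2 window held TCACNCCAC at bases -133 to -125, counted with the start as 0, with CCAAT and 3 GC boxes, a pair of which share a base. The TCACNCCAC match was the only one among the 47 promoters scanned, from 35 genes of the list. Promoters on chromosome 8, where SQLE and FDFT1 lie, were left out of this scan, and none was found for FASN. The shares over all promoters had no such exclusion. The SREBF1 window held 3 GC boxes and none of the other 3 motifs. No other start of SREBF1 was scanned, so this does not describe promoters elsewhere in the gene. Over all 35116 promoters, 1.13% held TCACNCCAC, 34.6% CCAAT, 45.0% GGGCGG and 3.42% TGTTTAC. Of the 47 promoters, 63.8% held CCAAT and 85.1% the GC box, which is a description of the windows and of no site in use.

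In the mevalonate route, which leads to farnesyl diphosphate, 2 of 6 genes rose, 1 fell and 3 did not pass (median 0.11). HMGCS1, the synthase that forms HMG-CoA, measured 125.8 and 158.7 CPM in the FOXD2 libraries, against 114.1 and 106.2 CPM in the empty vector libraries (0.37, SE 0.09, adjusted p = 0.00507, edgeR). The groups did not overlap, and the call held without each library, with the change between 0.19 and 0.52. PMVK, phosphomevalonate kinase, was at 15.7 and 14.6 CPM in the FOXD2 libraries, against 13.1 and 11.5 CPM in the empty vector libraries (0.31, SE 0.14, adjusted p = 0.0499, edgeR). FDPS, which makes farnesyl diphosphate, was at 112.7 and 138.2 CPM in the FOXD2 libraries, against 143.6 and 142.2 CPM in the empty vector libraries (-0.19, SE 0.07, adjusted p = 0.0329, edgeR). Both of these lay at the edge of the threshold. PMVK was lost without FOXD2 replicate 1 (0.25, adjusted p = 0.188) or either empty vector library (0.40, 0.0625 without replicate 1, and 0.21, 0.361 without replicate 2). FDPS was lost without FOXD2 replicate 1 (-0.06, 0.546) or either empty vector library (-0.19, 0.0982 without replicate 1, and -0.20, 0.0749 without replicate 2). The kinase MVK (0.17), the decarboxylase MVD (-0.13) and the isomerase IDI1 (0.05) did not pass. MVD passed without FOXD2 replicate 2 (-0.25, adjusted p = 0.0122), and IDI1 changed sign there (-0.03, 0.751).

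In the sterol branch, from squalene to cholesterol, 2 of 11 genes rose, 3 fell and 6 did not pass (median -0.07). SQLE, squalene epoxidase and a rate-limiting step after mevalonate, fell to 75.0 and 91.9 CPM in the FOXD2 libraries, against 125.1 and 113.4 CPM in the empty vector libraries (-0.52, SE 0.08, adjusted p = 5.00e-06, edgeR). DHCR7, which carries out the last reduction to cholesterol, fell to 103.9 and 117.9 CPM in the FOXD2 libraries, against 140.6 and 136.9 CPM in the empty vector libraries (-0.32, SE 0.07, adjusted p = 6.19e-05, edgeR). For both genes the groups did not overlap and the call held without each library.

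TM7SF2, a sterol C14 reductase, rose to 26.3 and 31.8 CPM in the FOXD2 libraries, against 16.3 and 18.7 CPM in the empty vector libraries (0.73, SE 0.11, adjusted p = 3.41e-07, edgeR). It had the largest change of the sterol arm, held without each library, and lies on chromosome 11 (65111845 to 65116384, plus strand). Its exons share 16 bases with VPS51 on the same strand, a gene that was also higher (0.31). EBP, the sterol isomerase, measured 59.0 and 58.1 CPM in the FOXD2 libraries, against 50.1 and 49.3 CPM in the empty vector libraries (0.24, SE 0.08, adjusted p = 0.0105, edgeR). MSMO1, the oxidase that removes the C4 methyl groups, measured 48.4 and 62.5 CPM in the FOXD2 libraries, against 65.9 and 64.7 CPM in the empty vector libraries (-0.24, SE 0.09, adjusted p = 0.0304, edgeR). EBP fell short of the threshold when empty vector replicate 1 (0.24, adjusted p = 0.0695) or 2 (0.22, 0.102) was left out, and MSMO1 did so without FOXD2 replicate 1 (-0.07, 0.540) or empty vector replicate 1 (-0.23, 0.0702). For both, the groups did not overlap in CPM, though FOXD2 replicate 2 came within a few CPM of the empty vector libraries for MSMO1.

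FDFT1, squalene synthase, had FOXD2 replicate 1 well below the other 3 libraries. It measured 131.2 and 178.0 CPM in the FOXD2 libraries, against 196.2 and 186.8 CPM in the empty vector libraries (-0.31, SE 0.19, adjusted p = 0.291, edgeR). Other edgeR fits to all 4 libraries called it lower, with no filter on low counts (-0.32, adjusted p = 0.000142) and with a replicate block (-0.32, 0.000271). It passed without FOXD2 replicate 2 (-0.55, adjusted p = 4.40e-14) and without empty vector replicate 1 (-0.28, 0.0104) or 2 (-0.35, 0.00116), but not without FOXD2 replicate 1 (-0.11, 0.155). LSS, lanosterol synthase, measured 76.4 and 97.3 CPM in the FOXD2 libraries, against 83.0 and 73.8 CPM in the empty vector libraries (0.15, adjusted p = 0.259, edgeR), with the groups overlapping. It passed without FOXD2 replicate 1 (0.31, adjusted p = 5.92e-04) and had the other sign without FOXD2 replicate 2 (-0.04, 0.739). CYP51A1 (-0.0037), NSDHL (-0.18), HSD17B7 (-0.07) and SC5D (-0.07), which act between lanosterol and the last reductions, did not pass. CYP51A1 shares 79.4% of its exon bases with AC000120.2 on the same strand, which was listed at 0 counts in all 4 libraries. NSDHL passed without FOXD2 replicate 2 (-0.29, adjusted p = 0.0239), and CYP51A1, HSD17B7 and SC5D changed sign without FOXD2 replicate 1 (0.12, 0.05 and 0.04).

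Of the sterol carriers, TMEM97, the sigma receptor that binds NPC1, fell to 54.2 and 58.6 CPM in the FOXD2 libraries, against 75.5 and 80.1 CPM in the empty vector libraries (-0.46, SE 0.08, adjusted p = 9.56e-07, edgeR). It held without each library. Its exons overlap those of IFT20 on the opposite strand over 11.9% of their bases, and IFT20 was higher (0.39, adjusted p = 0.0297), a call that held only without FOXD2 replicate 1 among the 4 fits that leave out a library (adjusted p = 0.161, 0.0667 and 0.197 in the others). NPC1, which exports cholesterol from lysosomes, measured 51.5 and 52.2 CPM in the FOXD2 libraries, against 66.2 and 59.0 CPM in the empty vector libraries (-0.27, SE 0.08, adjusted p = 0.00356, edgeR). It was lost without empty vector replicate 1 (-0.19, adjusted p = 0.146). RMC1, which overlaps NPC1 on the opposite strand over 5.98% of its exon bases, was lower too (-0.29), and its call was lost without empty vector replicate 2 (-0.27, adjusted p = 0.0779). In TPM, which divides by the transcript length estimated in each library, NPC1 did not differ in mean by more than its spread: 24.5 and 22.6 TPM in the FOXD2 libraries, against 23.6 and 23.2 TPM in the empty vector libraries. STARD4, a cytosolic sterol carrier, measured 60.7 and 83.5 CPM in the FOXD2 libraries, against 61.0 and 50.0 CPM in the empty vector libraries (0.38, SE 0.24, adjusted p = 0.297, edgeR). It was called higher with no filter on low counts (0.36, adjusted p = 0.000663) and with a replicate block (0.37, 0.00049). It passed without FOXD2 replicate 1 (0.58, adjusted p = 2.11e-10) or empty vector replicate 1 (0.52, 1.99e-05), and not without FOXD2 replicate 2 (0.13, 0.234) or empty vector replicate 2 (0.23, 0.0713).

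**Figure D2:**
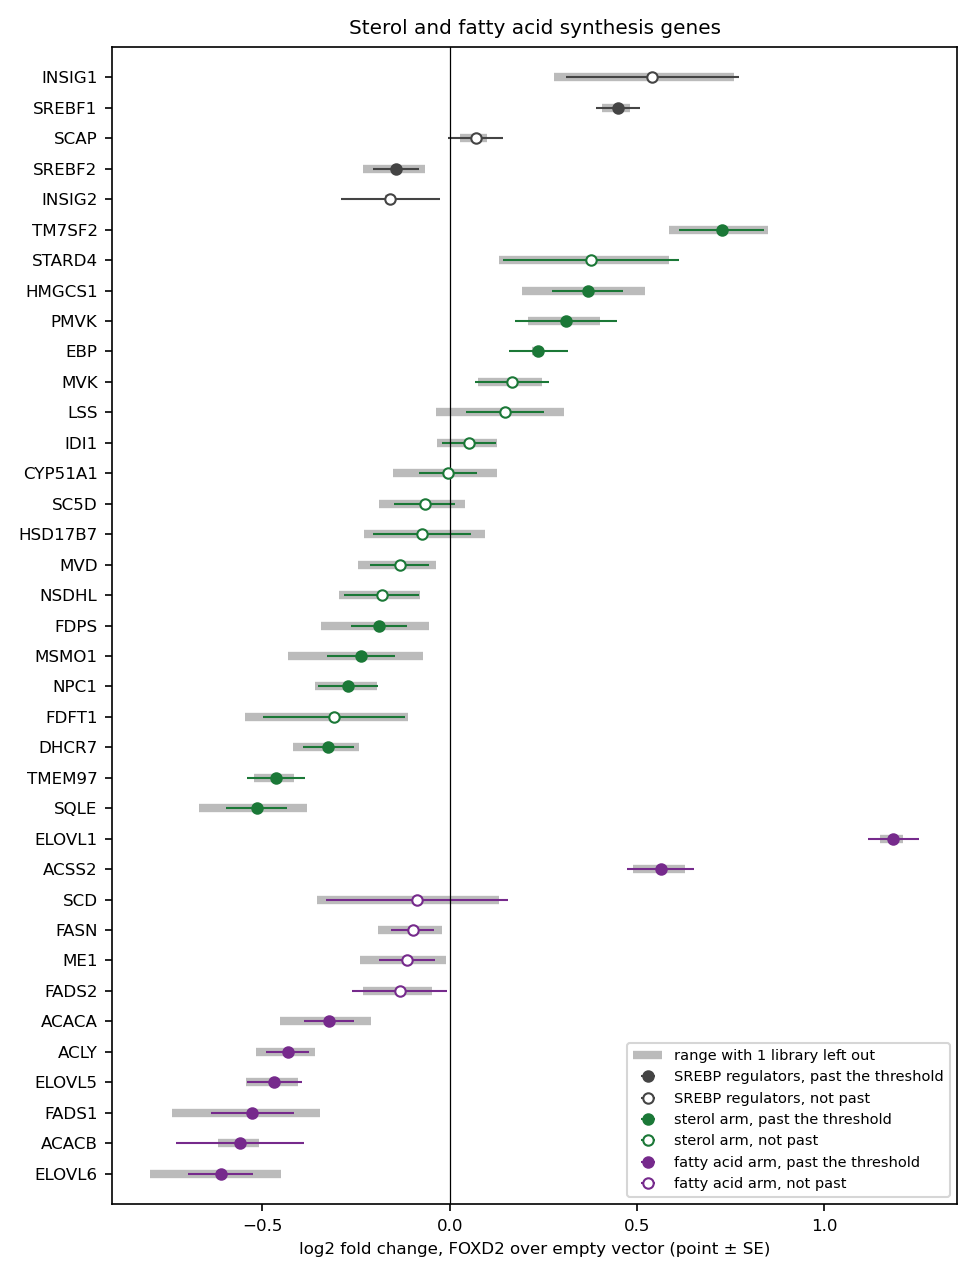
Fitted log2 fold change of FOXD2 over empty vector for the 37 tested genes, by arm, as points with SE, filled where the adjusted p was under 0.05. Grey bars span the values with 1 library left out, which cross 0 for SCD, LSS, IDI1, CYP51A1, SC5D and HSD17B7. ELOVL1 at 1.18 lies farthest to the right and ELOVL6 at -0.61 farthest to the left.

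In the fatty acid arm, 1 of the 6 genes that supply carbon and build palmitate rose, 3 fell and 2 did not pass (median -0.22). ACLY, which splits citrate into acetyl-CoA, fell to 311.4 and 348.8 CPM in the FOXD2 libraries, against 455.3 and 435.8 CPM in the empty vector libraries (-0.43, SE 0.06, adjusted p = 7.80e-09, edgeR). ACSS2, which makes acetyl-CoA from acetate, rose to 45.2 and 50.0 CPM in the FOXD2 libraries, against 33.2 and 31.3 CPM in the empty vector libraries (0.56, SE 0.09, adjusted p = 3.80e-07, edgeR). The genes for these 2 sources of cytosolic acetyl-CoA thus went in opposite directions, without overlap of the groups, and both calls held without each library. ACLY remained the more abundant per length, at 99.9 and 114.7 TPM in the FOXD2 libraries and 145.1 and 135.8 TPM in the empty vector libraries, where ACSS2 stood at 29.5 and 38.5 TPM in the FOXD2 libraries and 24.6 and 20.3 TPM in the empty vector libraries.

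ACACA, the main acetyl-CoA carboxylase, fell to 181.2 and 215.2 CPM in the FOXD2 libraries, against 252.3 and 243.2 CPM in the empty vector libraries (-0.32, SE 0.07, adjusted p = 8.54e-05, edgeR), and held without each library. ACACB, the mitochondrial form, was at 6.55 and 6.35 CPM in the FOXD2 libraries, against 9.15 and 9.87 CPM in the empty vector libraries (-0.56, SE 0.17, adjusted p = 0.00465, edgeR), and was lost without empty vector replicate 2 (-0.51, 0.0623). Its TPM overlapped between the groups, with a change of -0.24 on the log2(TPM + 1) scale (adjusted p = 0.429, limma). FASN, fatty acid synthase, measured 1317 and 1489 CPM in the FOXD2 libraries, against 1571 and 1434 CPM in the empty vector libraries (-0.10, SE 0.06, adjusted p = 0.146, edgeR). The groups overlapped, though FASN passed without FOXD2 replicate 2 (-0.19, adjusted p = 0.00222). ME1, the malic enzyme that yields NADPH, measured 94.6 and 81.0 CPM in the FOXD2 libraries, against 98.3 and 92.1 CPM in the empty vector libraries (-0.11, adjusted p = 0.192, edgeR), and passed without FOXD2 replicate 1 (-0.24, 0.00902).

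Of the 3 elongases, which lengthen fatty acids beyond palmitate, 1 was higher and 2 lower, beside 53.5% of all genes called in either direction. ELOVL1, which acts on saturated very long chains used in sphingolipids, rose to 171.4 and 165.3 CPM in the FOXD2 libraries, against 73.3 and 74.9 CPM in the empty vector libraries (1.18, SE 0.07, adjusted p = 8.84e-22, edgeR). This was the largest change of the whole list, and the replicates of each group lay close together. ELOVL5, which acts on polyunsaturated chains, fell to 69.3 and 76.7 CPM in the FOXD2 libraries, against 100.6 and 101.3 CPM in the empty vector libraries (-0.47, SE 0.07, adjusted p = 2.30e-07, edgeR). ELOVL6, which takes palmitate to stearate, fell to 54.2 and 69.4 CPM in the FOXD2 libraries, against 93.3 and 95.2 CPM in the empty vector libraries (-0.61, SE 0.09, adjusted p = 1.27e-06, edgeR). None of the 3 calls was lost without any library. Per length, ELOVL1 exceeded ELOVL6 by a ratio of 9.62 and 7.97 in the FOXD2 libraries, against 2.02 and 2.20 in the empty vector libraries, and exceeded ELOVL5 by 4.90 and 4.16 in the FOXD2 libraries, against 1.32 and 1.38 in the empty vector libraries. These ratios depend on the estimated transcript length, which for ELOVL6 was greater in the FOXD2 libraries (15.3%). In CPM, ELOVL1 lay above ELOVL5 and ELOVL6 in the FOXD2 libraries and below both in the empty vector libraries. The 3 elongases summed to 255.0 and 270.4 TPM in the FOXD2 libraries and 182.7 and 182.8 TPM in the empty vector libraries.

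The promoters of ELOVL1 and ELOVL6 are shown as those of the genes with the largest rise and fall in the list, with capitals as for the SREBP genes.
ELOVL1, chr1:43367962-43368261, minus strand: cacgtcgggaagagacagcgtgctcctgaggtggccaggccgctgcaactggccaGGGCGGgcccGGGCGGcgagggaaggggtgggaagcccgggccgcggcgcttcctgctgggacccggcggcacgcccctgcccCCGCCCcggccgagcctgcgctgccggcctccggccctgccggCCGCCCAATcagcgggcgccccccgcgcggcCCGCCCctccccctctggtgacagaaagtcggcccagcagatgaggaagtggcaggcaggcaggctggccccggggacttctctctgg
ELOVL6, chr4:110198566-110198865, minus strand: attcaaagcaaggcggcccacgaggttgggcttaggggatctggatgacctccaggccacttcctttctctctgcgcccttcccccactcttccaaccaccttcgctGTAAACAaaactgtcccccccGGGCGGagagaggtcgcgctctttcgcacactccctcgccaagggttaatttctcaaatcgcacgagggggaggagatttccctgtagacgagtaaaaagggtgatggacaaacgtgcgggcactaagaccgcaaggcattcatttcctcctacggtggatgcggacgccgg

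The ELOVL1 window held CCAAT at bases -65 to -61, overlapping one of its 5 GC boxes, and no match to TCACNCCAC or TGTTTAC. The ELOVL6 window held 1 GC box and, at bases -143 to -137 on the opposite strand, the only match to TGTTTAC among the 47 promoters scanned for the list. These matches describe the letters of the windows only.

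Of the desaturases 1 of 3 fell. FADS1, which adds a double bond to polyunsaturated chains, fell to 63.6 and 84.0 CPM in the FOXD2 libraries, against 109.0 and 103.4 CPM in the empty vector libraries (-0.53, SE 0.11, adjusted p = 0.00238, edgeR). The FOXD2 libraries lay below both empty vector libraries and the call held without each library, though not on the log2(TPM + 1) scale (-0.45, adjusted p = 0.0645, limma). FADS2, which acts earlier in the same route and overlaps FADS1 on the opposite strand over 490 exon bases, measured 14.2 and 16.2 CPM in the FOXD2 libraries, against 17.0 and 16.3 CPM in the empty vector libraries (-0.13, adjusted p = 0.388, edgeR). SCD, the desaturase that makes oleate and one of the most abundant transcripts of the list, measured 1329 and 1871 CPM in the FOXD2 libraries, against 1787 and 1613 CPM in the empty vector libraries. The empty vector libraries lay between the FOXD2 libraries, and the change of -0.09 (SE 0.24) did not pass (adjusted p = 0.809, edgeR). With 1 FOXD2 library left out, the change was 0.13 without replicate 1 (adjusted p = 0.0387) and -0.36 without replicate 2 (3.34e-09). Each of these fits sets a single FOXD2 library against the spread of the empty vector pair, so they describe those libraries and are not calls about FOXD2.

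The spread between the 2 FOXD2 libraries ran mostly one way across the list. FOXD2 replicate 2 was above FOXD2 replicate 1 for 31 of 37 genes (median log2 ratio 0.19), beside 50.2% of all genes tested (median 0.00088). In the sterol arm it was above for 18 of 20 (median 0.25), in the fatty acid arm for 9 of 12 (median 0.17) and among the regulators for 4 of 5. SCD (0.49), INSIG1 (0.49), STARD4 (0.46), FDFT1 (0.44) and FADS1 (0.40) differed most, and ME1 (-0.22) and PMVK (-0.11) most in the other direction. In the empty vector libraries replicate 2 was above replicate 1 for 7 of 37 genes (median -0.07), beside 51.0% of all genes. The 4 libraries give 1 such difference per group, so these counts describe the libraries at hand. What made the FOXD2 replicates differ was not tested.

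**Figure D3:**
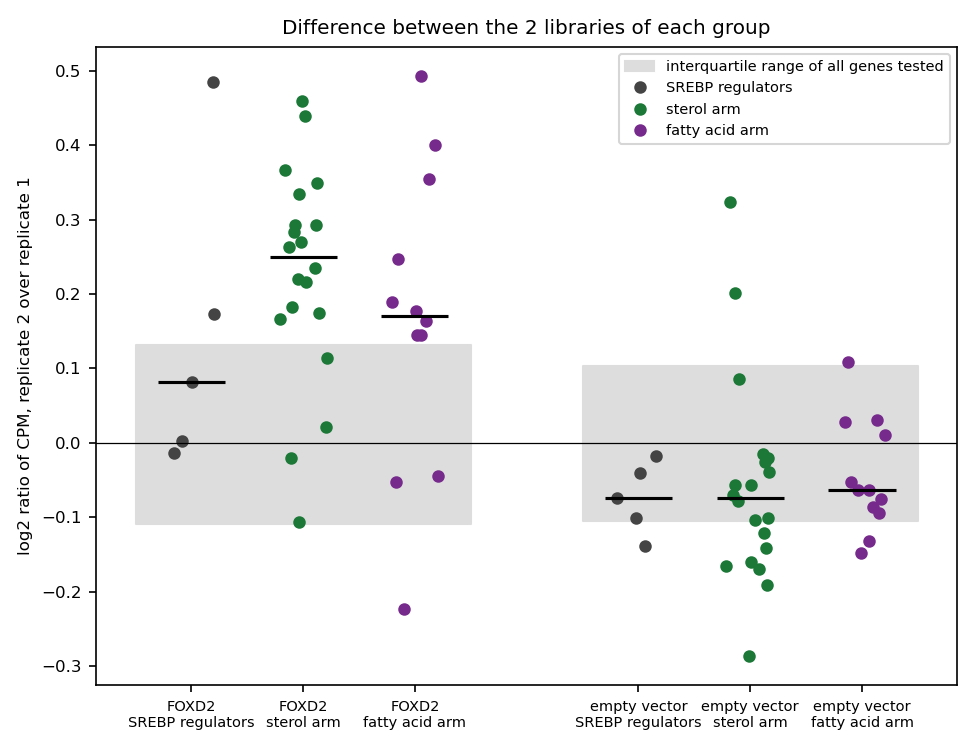
Log2 ratio of CPM in replicate 2 over replicate 1 for each tested gene, FOXD2 libraries on the left and empty vector libraries on the right, by arm, with bars at the medians. Grey bands hold the interquartile range of all genes tested (-0.11 to 0.13 in the FOXD2 libraries, -0.11 to 0.10 in the empty vector libraries), and most sterol arm genes of the FOXD2 libraries lie above their band.

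The abundance-weighted transcript length that RSEM gives per gene, which moves with the estimated shares of isoforms, differed without overlap of the groups for 16 of 37 genes, 7 longer and 9 shorter in the FOXD2 libraries (43.2%, beside 34.4% of all genes tested). ELOVL6 had the greatest gain, at 3629 and 3857 bases in the FOXD2 libraries, against 3177 and 3314 bases in the empty vector libraries (15.3%). ACACA was at 5883 and 5893 bases in the FOXD2 libraries, against 5286 and 5240 bases in the empty vector libraries (11.9%), with the replicates of each group close together. SREBF1 had the greatest loss, at 3004 and 2651 bases in the FOXD2 libraries, against 3449 and 3257 bases in the empty vector libraries (-15.7%). NPC1 (-14.3%) and LSS (-10.3%) were also shorter. TPM divides by this length, and the change of SREBF1 was 0.45 from counts and 0.74 on the log2(TPM + 1) scale. No test of isoform use was made, and the tables of single isoforms were not used here.

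**Figure D4:**
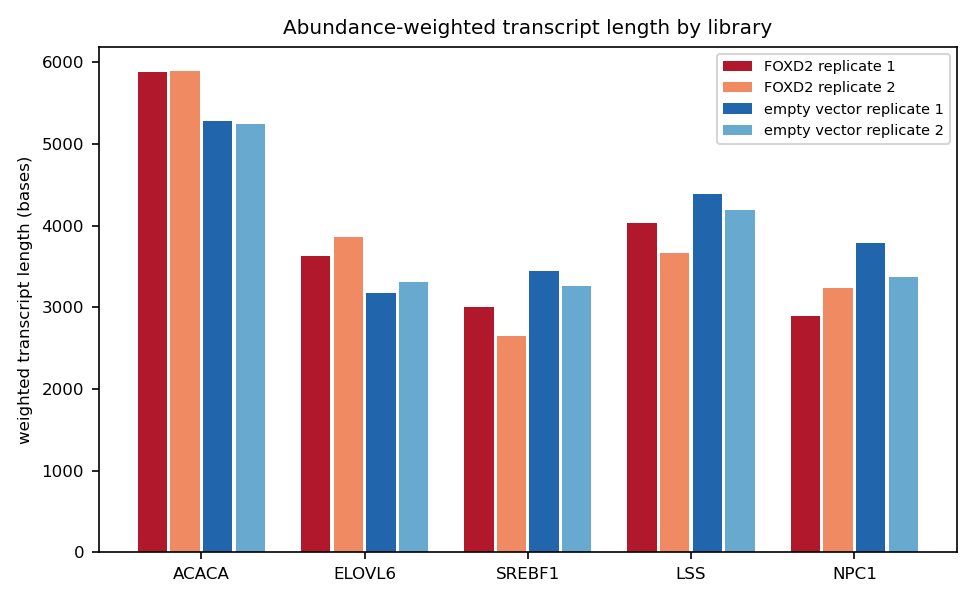
Abundance-weighted transcript length in bases, one bar per library, for the 5 genes whose mean length differed by over 10% between the groups without overlap. ACACA and ELOVL6 are longer in the FOXD2 libraries, and SREBF1, LSS and NPC1 are shorter.

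Genes that act around the SREBP and lipid routes were counted from fixed lists of other genes, and their counts stand beside the 27.2% higher and 26.4% lower over all genes tested, so that a list with 53.5% of its genes called is at the level of genes at large. Of 9 genes that act in the processing of SREBPs or in the degradation of sterol-regulated proteins, 2 rose and 5 fell (median -0.20), among them the site-2 protease MBTPS2 (-0.37), SPRING1 (-0.31) and ERLIN2 (-0.29, lost without empty vector replicate 2 at -0.23, adjusted p = 0.0938). Of 9 genes at the branches to isoprenoids, 1 rose and 4 fell (median -0.22). COQ2, of coenzyme Q synthesis, fell to 14.3 and 12.9 CPM in the FOXD2 libraries, against 23.9 and 26.5 CPM in the empty vector libraries (-0.89, SE 0.12, adjusted p = 6.81e-09, edgeR). ACAT2, which joins acetyl-CoA units at the start of the mevalonate route, fell (-0.40), as did PDSS1 (-0.31), while FNTA, a subunit of farnesyltransferase, rose (0.30). PDSS1 was lost without FOXD2 replicate 2 (-0.24, adjusted p = 0.0870) or empty vector replicate 2 (-0.21, 0.234), and FNTA without empty vector replicate 1 (0.26, 0.0511).

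Of 10 tested genes of sterol storage and efflux, 4 rose and 2 fell (median 0.25), that is 60.0% called beside 53.5% of all genes. NPC2, the lysosomal partner of NPC1, rose to 200.3 and 187.3 CPM in the FOXD2 libraries, against 61.4 and 66.1 CPM in the empty vector libraries (1.60, SE 0.07, adjusted p = 3.28e-27, edgeR), a larger change than any sterol arm gene had. STARD3 (0.66) and the lysosomal lipase LIPA (0.52) rose, and the lipoprotein receptor SCARB1 fell (-0.49). Of 9 genes of glycerolipid synthesis, which use the fatty acids made, 5 rose and 1 fell (median 0.33), that is 66.7% called beside 53.5% of all genes, and whether the list differs from other genes was not tested. Those with the largest changes were DGAT2 (1.35), LPIN1 (1.11), LPIN3 (0.99) and DGAT1 (0.74), all of them in the last steps to triglyceride. These steps did not all rise: LPIN2, of the same family as LPIN1 and LPIN3, was the gene that fell (-0.43, SE 0.12, adjusted p = 0.00213, edgeR).

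Of 15 tested partners of fatty acid synthesis, 4 rose and 5 fell (median -0.09). MLXIPL, which encodes the glucose-responsive activator ChREBP, rose to 52.2 and 64.5 CPM in the FOXD2 libraries, against 20.7 and 22.2 CPM in the empty vector libraries (1.44, SE 0.10, adjusted p = 1.41e-16, edgeR). The acyl-CoA synthetases ACSL1 (-0.76) and ACSL5 (0.73) went in opposite directions, and HACD3, a dehydratase of the elongation cycle, fell (-0.67). Of 9 tested genes of fatty acid oxidation, 3 rose and 2 fell (median 0.04). ACADVL, the mitochondrial very long chain acyl-CoA dehydrogenase, rose to 342.0 and 333.5 CPM in the FOXD2 libraries, against 134.2 and 136.3 CPM in the empty vector libraries (1.32, SE 0.06, adjusted p = 3.00e-26, edgeR), PPARA (0.52) and ETFDH (0.36) rose, and HADHA fell (-0.27). ETFDH was lost without FOXD2 replicate 2 (0.30, adjusted p = 0.0745) or empty vector replicate 1 (0.32, 0.112) or 2 (0.39, 0.0516).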

How the data were processed

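PolyA RNA libraries from HCT116 cells were compared, 2 with FOXD2 and 2 with empty vector, grouped by their titles. The tools named per the submitters' processing notes are STAR 2.7.2b and RSEM 1.2.31, with build GRCh38. The annotation release and the strand setting are not given in the sources used here, so values of genes that overlap others on the opposite strand are uncertain. The deposited tables hold, per the file headers, the authors' expected counts, TPM and posterior SD of the counts, and transcript length in bases weighted by isoform share. Expected counts were rounded to whole numbers. CPM uses TMM-scaled totals. A count of 0 allows up to 3 counts, 0.193 to 0.211 CPM, and such limits cover counting error only.

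The test was edgeR 4.0.16 in R 4.3.3 (filterByExpr, TMM, robust quasi-likelihood fit, both directions), with Benjamini-Hochberg adjustment over 14470 genes and a threshold of 0.05. The fit was checked on simulated counts with 200 changed genes and the same spread for every gene. In the data 53.5% of genes were called and the spread differed between genes, so the check does not cover that setting. Chi-square per degree of freedom was 3.91 between the FOXD2 libraries and 2.52 between the empty vector libraries, so neither pair was one library deposited again. Alternatives were other size factors, other filters, DESeq2 1.42.0, voom and TPM with limma 3.58.1 (pseudocounts 1 and 0.1), a replicate block and leaving out each library. Exact permutation of 2 against 2 libraries cannot go below 0.333 and was not used.

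Members and lists were chosen with earlier results of these data known. Named were all members, FOXD2, markers, and up to 4 genes per other list, past the threshold, with the largest change. Overlapping neighbours and LPIN2 were added after their values were seen. A gene that this rule would name is not reported here. Coordinates and overlaps are from GENCODE release 29 (58496 identifiers matched), and promoters from RefSeq (GRCh38.p14), scanned for 35 of 38 genes. Those on chromosome 8, of SQLE and FDFT1, were left out for the list but not over all promoters, and none was found for FASN. The posterior SD was 0 in all libraries for 34 of 38 members and at most 0.566% of the counts in the others.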

Additional observations from a re-analysis of the deposited data

How the results depend on the processing

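Of the 20 genes past the threshold, 12 kept direction and call under all 13 alternatives: SREBF1, HMGCS1, SQLE, TM7SF2, DHCR7, TMEM97, ACLY, ACSS2, ACACA, ELOVL1, ELOVL5 and ELOVL6. With 1 library left out, 6 to 10 genes rose and 10 to 18 fell; in the sterol arm 2 to 5 rose and 4 to 9 fell, and in the fatty acid arm 2 to 3 rose and 5 to 8 fell, where 21.0% to 24.1% of all genes rose and 20.3% to 24.5% fell. Regulators higher were then 2 in each case and lower 0 to 1. On TPM with pseudocounts 1 and 0.1, 7 genes fell, 3 of them sterol arm genes, and over all genes 2442 and 2436 fell; 2 regulators rose and 0 fell. DESeq2 gave 2 sterol arm genes higher and 0 regulators lower. Upper quartile factors, which moved the median of all genes to 0.05, gave 0 regulators lower, and no filter on low counts gave 2 higher. Same-numbered libraries did not deviate together over the genes tested (correlation -0.0989). With 1 difference per group, this cannot tell whether the numbers pair libraries. A replicate block gave 8 genes higher and 13 lower (25.4% and 24.1% of all genes), with 2 regulators higher and 0 lower. The sign turned for CYP51A1 (0.035 with upper quartile factors, 0.041 and 0.042 on the TPM scales), HSD17B7 (0.017 and 0.018), INSIG2 (0.087 and 0.094) and NPC1 (0.0037 and 0.0038). With 1 library left out, CYP51A1 ranged over -0.15 to 0.12, HSD17B7 -0.23 to 0.095, IDI1 -0.035 to 0.12, LSS -0.038 to 0.31, SC5D -0.19 to 0.040 and SCD -0.36 to 0.13. The causes were not tested. With 2 libraries per group, the values of SCD turned on single libraries, and INSIG1, FDFT1 and STARD4 passed in some alternatives only.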
